A study of Mus musculus with 6 samples.

Results

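The Hox genes of the 4 mammalian clusters were examined in differentiating mouse myoblasts that carried an expanded CUG repeat, with and without ectopic miR-322/-503. A gene was a member if its name was Hox followed by a cluster letter (a, b, c or d) and a number alone. This gave 39 of the 55421 genes in the count table, with 11 in HoxA, 10 in HoxB, 9 in HoxC and 9 in HoxD. The rule used names alone.

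The cells were C2C12, a myoblast line derived from mouse leg muscle. Both groups were stably transfected with pCDNA3-GFP-(CUG)200, a model of myotonic dystrophy type 1, in which transcripts with long CUG repeats are toxic to muscle. The control group also carried the empty pLL4.0 vector, and the miR-322/-503 group carried pLL4.0 that expressed both microRNAs. Stable lines were selected with G418 and puromycin before differentiation, and cells were collected on day 4 of it, with 3 libraries of total RNA in each group. Each group was 1 stable line, so the effect of the microRNAs and a difference between the lines cannot be told apart. The study describes its replicates as biological, and with a single line in each group the p-values measure the spread between libraries of that line.

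The library totals were 73532084 to 92157388 estimated counts. One read pair was worth about 4 estimated counts, and 3 read pairs, or 12 counts, were taken as the limit that a count of 0 allows. All 11 muscle markers passed the filter, 7 of them higher and 1 lower in the miR-322/-503 group at an adjusted p under 0.05, where 13.2% of all tested genes were higher and 15.5% lower, and their summed level was 2364 to 2503 counts scaled to library size (CPM) in control libraries and 2967 to 3274 CPM in miR-322/-503 libraries. Of the 5 tested markers of non-muscle mesenchyme, 1 was higher and 4 were lower, beside the same shares of all genes, with sums of 3034 to 3169 and 3265 to 3509 CPM. Of 6 bone and cartilage markers 4 were tested, 1 was higher and 1 lower, with sums of 117.9 to 124.8 and 123.4 to 135.9 CPM, and Acan had 0 counts in every library. Of 4 adipocyte markers 1 was tested and did not pass, with sums of 7.33 to 9.20 and 7.98 to 10.5 CPM, and Adipoq and Fabp4 had 0 counts. Of 3 blood and endothelium markers 1 was tested and did not pass, with sums of 2.01 to 2.93 and 3.26 to 3.83 CPM. The part of these markers in the differences below was not tested, and fewer cells that express a gene cannot be told apart from less RNA per cell in bulk samples.

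Hox genes encode homeodomain transcription factors that give cells their position along the body and limb axes. In each cluster the genes lie in order of paralog number, and low numbers are used nearer the head and high numbers nearer the tail and the tip of the limb. Genes with the same number in different clusters (paralogs) descend from 1 ancestral gene, and cultured cells often keep the Hox pattern of the place they came from. Hox proteins bind DNA together with TALE homeodomain cofactors (Pbx, Meis and Pknox), and Polycomb and Trithorax proteins hold the clusters silent or active.

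The mature sequences of both microRNAs are shown because the groups differ by them. The capitals mark the seed, bases 2 to 8, which pairs with target transcripts. Sequences and positions are from RefSeq, build GRCm38.p6, minus strand.

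miR-322-5p (chrX:53054306-53054327): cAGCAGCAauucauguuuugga

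miR-503-5p (chrX:53054027-53054049): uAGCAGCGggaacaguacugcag

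The seeds differ in their last base, so the complementary heptamers are TGCTGCT for miR-322-5p and CGCTGCT for miR-503-5p. The counts of the 2 microRNA genes did not check the overexpression. Mir322 had 1, 7 and 2 estimated counts in control libraries and 17, 0 and 3 in miR-322/-503 libraries. Mir503 had 1, 1 and 2 against 6, 4 and 5. A mature microRNA is shorter than the fragments these libraries hold, and all but 1 of these 12 values lay under 12 counts.

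The heptamers were searched on the sense strand of the longest annotated 3′ UTR of each gene, without regard to conservation. TGCTGCT was present in 5 of the 24 Hox genes that entered the test (20.8%), against 24.4% of the 13416 tested genes with such a 3′ UTR. These were Hoxa3, Hoxa10, Hoxb4, Hoxc5 and Hoxc11. CGCTGCT was present in 3 of 24 (12.5%), namely Hoxb4, Hoxc5 and Hoxc9, against 4.87% of all. Hoxb4 is shown because it held both heptamers with 2 bases between them and was higher with the microRNAs (below). The sites of the other 3 Hox genes that held TGCTGCT alone are shown for comparison. Positions are on GRCm38, the strand is that of the gene, and capitals mark the heptamers.

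Hoxb4 (chr11:96320875-96320900, plus strand): gcctcTGCTGCTgtCGCTGCTggatc

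Hoxa3 (chr6:52169099-52169127, minus strand): tttacattcctTGCTGCTcacattctgag

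Hoxa10 (chr6:52231241-52231269, minus strand): taatattgtatTGCTGCTgtgcgtggaaa

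Hoxc11 (chr15:102957010-102957038, plus strand): caacaatgtctTGCTGCTcggattgggtg

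Of the 6 Hox genes that were lower with the microRNAs (below), 0 held TGCTGCT and 0 held CGCTGCT. The median log2 fold change was −0.18 for the 5 Hox genes with TGCTGCT and −0.25 for those without it. Over all tested genes these medians were 0.0143 and −0.0238. The Hox medians include HoxB genes that entered the test only through the libraries where they are high. These were Hoxb4 (3.56) among those with TGCTGCT, and Hoxb3 (2.77), Hoxb5 (2.89) and Hoxb6 (3.28) among those without it. Nothing is therefore read from the difference between the Hox medians. A heptamer match is a description of the sequence and not a measured binding site.

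HoxA and HoxC were expressed, HoxB was near the limit of detection in control cells, and HoxD had no reads. More than 12 estimated counts in every library of a group were found for 20 Hox genes in control cells, which were all 11 HoxA and all 9 HoxC genes, and for 22 in miR-322/-503 cells, which were 11 HoxA, 8 HoxC and 3 HoxB genes. All 9 HoxD genes, with Hoxb1, Hoxb7 and Hoxb9, had 0 counts in the 6 libraries. A count of 0 allows up to 0.126 to 0.16 CPM here, depending on the library. In TPM, a level per transcript length, HoxA summed to 139.3 ± 11.31 in control and 123.5 ± 10.58 in miR-322/-503 cells (SD, n = 3). The HoxC sum was 176.0 ± 11.47 and 141.1 ± 12.06. The HoxB sum was 0.44, 0.397 and 0.41 TPM in control libraries and 3.93, 3.67 and 3.26 in miR-322/-503 libraries, so that its share of all Hox transcripts was 0.132% and 1.36%. The HoxA groups overlapped, and the HoxB and HoxC groups did not. Sums over members were not tested.

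**Figure D1:**
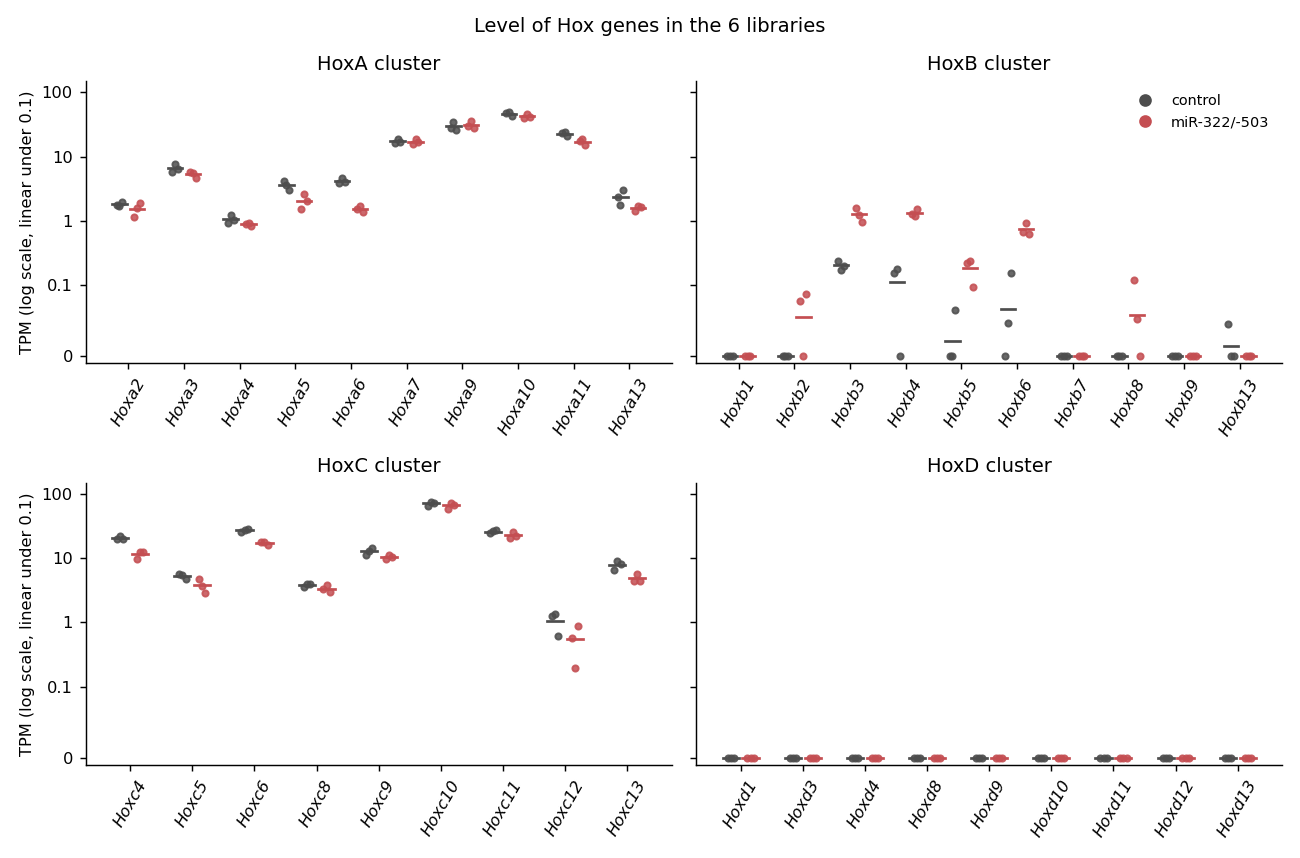
Level of 38 Hox genes in TPM (y axis, log scale that is linear under 0.1), by cluster, with 1 point for each of the 3 control and 3 miR-322/-503 libraries and a line at each group mean. HoxA and HoxC genes lie between 0.198 and 75.8 TPM, HoxB genes at or under 1.55 TPM, and all 9 HoxD genes at 0.

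Hoxc10 and Hoxa10 led the order of levels. In control cells the order by mean TPM was Hoxc10 (71.3 ± 5.55), Hoxa10 (46.5 ± 3.41), Hoxa9 (29.7 ± 4.71), Hoxc6 (27.2 ± 1.74), Hoxc11 (26.0 ± 1.46), Hoxa11 (22.6 ± 1.43), Hoxc4 (20.8 ± 1.45) and Hoxa7 (17.3 ± 1.297). Neighbours whose libraries overlapped, and whose order is therefore not settled, were Hoxa9 with Hoxc6, Hoxc6 with Hoxc11, and Hoxa11 with Hoxc4. Paralogs 10 to 13 made up 56.3% of the summed Hox level in control and 57.9% in miR-322/-503 cells. Most of this came from numbers 10 and 11, with means of 117.9 and 48.6 TPM in control cells. Numbers 12 and 13 had 1.07 and 10.2 TPM there. Hoxc10, a gene of the hindlimb and lumbar region, was first in both groups, and the first 3 places were the same. The largest move down was that of Hoxa6, from place 13 to place 17 of the 22 ranked genes, and Hoxc6 went from place 4 to place 5.

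Changes were tested with edgeR on the estimated counts of all 18140 genes that passed the filter on low counts, and p-values were adjusted over all of them. Of the 39 members, 24 entered the test, which were all 11 HoxA genes, all 9 HoxC genes, Hoxb3, Hoxb4, Hoxb5 and Hoxb6. The other 15 (6 HoxB and 9 HoxD genes) had too few counts. At an adjusted p under 0.05, 3 Hox genes were higher in miR-322/-503 cells and 6 were lower, and 15 did not pass. Over all tested genes 13.2% were higher and 15.5% were lower. The 3 higher genes were in HoxB and passed 2-fold, as did 4.59% of all genes in that direction, but they entered the test only through the miR-322/-503 libraries, so nothing is read from their count. Of the 6 lower genes 3 were in HoxA and 3 in HoxC, and 1 passed 2-fold, against 5.29% of all genes.

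**Figure D2:**
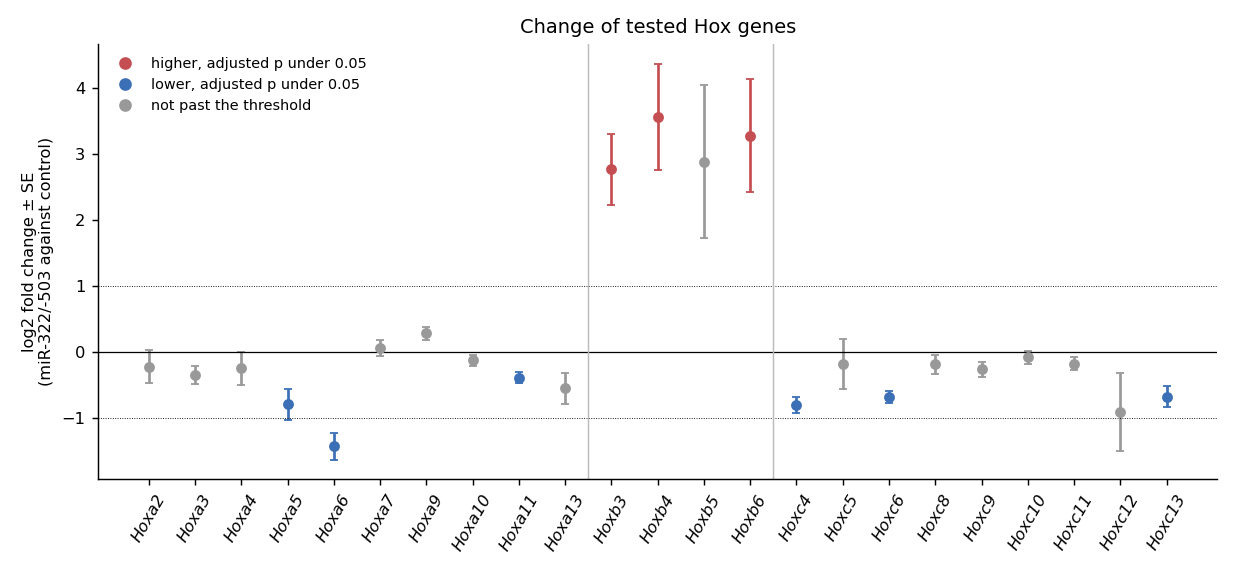
log2 fold change of the miR-322/-503 group against control (y axis) for 23 tested Hox genes, in order of cluster and paralog number, with bars of 1 SE from edgeR. Points at or above 2.77 are HoxB genes, and the lowest point is Hoxa6 at −1.43. Dotted lines mark a 2-fold change.

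In the HoxB cluster (chr11:96194316-96368256), the neighbouring genes Hoxb3, Hoxb4, Hoxb5 and Hoxb6 had more estimated counts in every miR-322/-503 library than in any control library. For Hoxb5 the closest libraries, at 12 and 9 counts, differed by less than 1 read pair. These 4 genes passed the filter only through the miR-322/-503 libraries, which selects for genes that are higher there. Their count and median therefore carry no weight, and the values of each gene are given instead. Hoxb3 (ENSMUSG00000048763), a gene of the hindbrain and neck region, had 28, 24 and 6 counts in control and 157, 156 and 91 in miR-322/-503 libraries. Its log2 fold change was 2.77 (SE 0.54, adjusted p = 0.007299), and the ratio of read pairs was 7.18 with an exact 95% interval of 4.09 to 13.6. The interval covers counting error only, as do the others below. Of the exon bases of Hoxb3, 52.9% also lie in the antisense gene Hoxb3os, which was listed at 0 counts in all 6 libraries. Whether the counting used strand is not stated in the sources used here.

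Hoxb4 (ENSMUSG00000038692), known for promoting the growth of blood stem cells, had 17, 20 and 0 counts in control and 163, 120 and 163 in miR-322/-503 libraries. The lowest miR-322/-503 library had 6 times the counts of the highest control library. The log2 fold change was 3.56 (SE 0.81, adjusted p = 0.0146), and 9 read pairs stood against 112, a ratio of 12.4 (6.30 to 27.8). Without control replicate 3 the log2 fold change was 2.97. Hoxb4 shares no exon base with another annotated gene. Its 3′ UTR carried both heptamers shown above.

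Hoxb6 (ENSMUSG00000000690), a thoracic and limb bud gene, had 0, 4 and 14 counts in control and 65, 58 and 52 in miR-322/-503 libraries. The log2 fold change was 3.28 (SE 0.86, adjusted p = 0.02593), and the ratio of read pairs was 10.9 (3.99 to 42.0). Without control replicate 2 or any 1 of the 3 miR-322/-503 libraries Hoxb6 no longer passed, and without control replicate 3 its log2 fold change was 4.77. Hoxb5, which lies between Hoxb4 and Hoxb6, had 0, 0 and 9 counts against 31, 26 and 12, and did not pass (log2 fold change 2.89, SE 1.16, adjusted p = 0.1066). It was called without control replicate 3 and with limma on log2(TPM + 0.1). Its 2 read pairs in control against 17 gave a ratio of 8.46, with an interval of 2.01 to 75.5.

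The genes on either side of these 4 stayed near the limit. Hoxb2 had 0, 0 and 0 counts in control and 12, 0 and 12 in miR-322/-503 libraries, and Hoxb8 had 0, 0 and 0 against 16, 6 and 0. Hoxb13 had 5 counts in 1 control library and 0 elsewhere. At their highest, Hoxb3 and Hoxb4 reached 1.25 ± 0.303 and 1.33 ± 0.159 TPM (SD, n = 3), about the level of Hoxa2 in the same cells (1.53 ± 0.369).

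**Figure D3:**
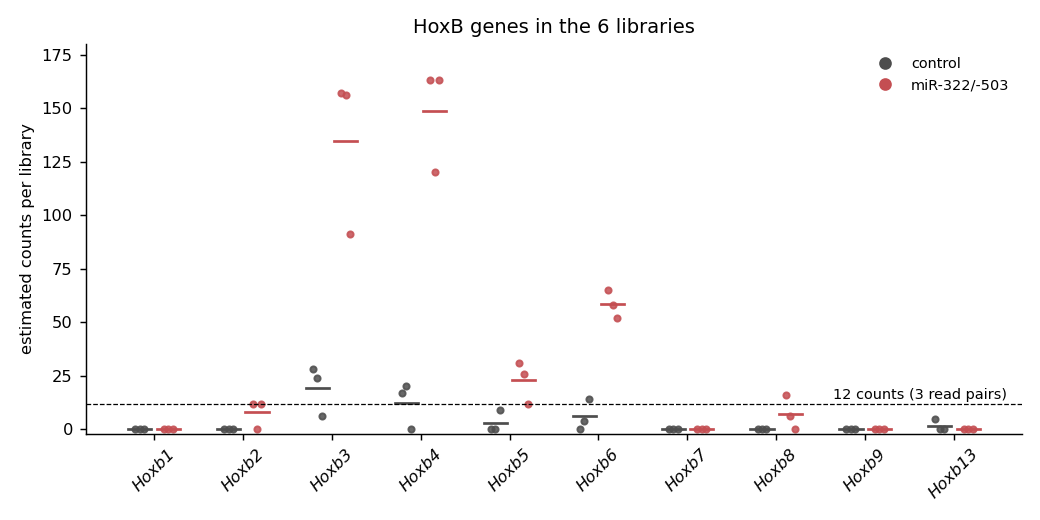
Estimated counts (y axis) of the 10 HoxB genes in the 3 control and 3 miR-322/-503 libraries, with a line at each group mean and a dashed line at 12 counts (3 read pairs). Hoxb3, Hoxb4, Hoxb5 and Hoxb6 have their miR-322/-503 points above their control points, and the other 6 genes lie at or near 0.

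In the HoxA and HoxC clusters the differences were small and mostly downward. All 20 genes entered the test, and by edgeR 0 were higher and 6 were lower. The 1 gene with an unadjusted p under 0.05 in the upward direction was Hoxa9, which DESeq2 called. The groups overlapped for 10 of the 20 genes, and over all tested genes 45.1% did not overlap. They did not overlap for 9 genes that were lower in the miR-322/-503 cells, where 23.5% of all tested genes did the same, and for 1 that was above. The log2 fold change lay below 0 for 9 of 11 HoxA genes (median −0.25) and for 9 of 9 HoxC genes (median −0.26), so for 18 of 20 in all. Over all tested genes 50.7% lay below 0, with a median of −0.0066. Over all tested genes of a chromosome the medians were −0.0108 (chromosome 6, HoxA) and −0.0405 (chromosome 15, HoxC). Under the alternatives tried, 17 to 19 of these genes lay below 0, since Hoxa7, Hoxc5 and Hoxc10 lay close to 0 and changed sign under some of them. Most genes varied little among libraries of 1 group, with a median coefficient of variation of 10.9% in control and 10.1% in miR-322/-503 cells on the CPM scale.

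Hoxa6 and Hoxa5 are neighbours in the middle of HoxA (chr6:52155590-52260880) and act in the axial skeleton. Hoxa6 (ENSMUSG00000043219) had 137, 175 and 160 counts in control and 66, 58 and 51 in miR-322/-503 libraries. The lowest control library had more counts than the highest 2 miR-322/-503 libraries together. This gave a log2 fold change of −1.43 (SE 0.20, adjusted p = 0.001765), and no other lower Hox gene passed 2-fold. Hoxa5 (ENSMUSG00000038253), also needed for lung development, had 316, 292 and 256 counts against 140, 190 and 160. The groups did not overlap, and its log2 fold change was −0.80 (SE 0.24, adjusted p = 0.04038). Without control replicate 1, 2 or 3, or miR-322/-503 replicate 1 or 3, it no longer passed, nor did it with no filter on low counts (adjusted p = 0.06036). Neither Hoxa5 nor Hoxa6 shares an exon base with another annotated gene.

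Of the 39 Hox genes 22 had an entry in the RefSeq promoter table (250 bases before and 50 after the start, GRCm38.p6), among them 5 of the 9 changed genes. The 250 bases before the start are shown for Hoxb4, which was higher, and for Hoxa5 and Hoxa6, which were lower together. Capitals mark the CCAAT box, which reads ATTGG on the other strand.

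Hoxb4 (chr11:96318017-96318266, plus strand): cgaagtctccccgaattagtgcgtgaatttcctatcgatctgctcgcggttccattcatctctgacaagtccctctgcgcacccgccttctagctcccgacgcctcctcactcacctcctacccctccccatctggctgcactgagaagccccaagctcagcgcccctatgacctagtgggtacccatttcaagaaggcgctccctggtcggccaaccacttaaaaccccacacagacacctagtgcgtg

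Hoxa5 (chr6:52204588-52204837, minus strand): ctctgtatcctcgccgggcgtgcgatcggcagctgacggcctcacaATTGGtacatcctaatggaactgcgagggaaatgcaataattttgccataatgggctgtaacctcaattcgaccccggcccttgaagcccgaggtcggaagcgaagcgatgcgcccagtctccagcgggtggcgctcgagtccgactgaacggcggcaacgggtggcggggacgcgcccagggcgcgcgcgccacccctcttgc

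Hoxa6 (chr6:52208673-52208922, minus strand): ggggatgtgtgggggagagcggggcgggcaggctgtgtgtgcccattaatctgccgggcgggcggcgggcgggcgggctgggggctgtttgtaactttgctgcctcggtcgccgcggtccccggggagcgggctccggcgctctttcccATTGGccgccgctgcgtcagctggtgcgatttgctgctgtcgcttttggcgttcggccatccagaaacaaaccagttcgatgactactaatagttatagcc

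Over the 300-base window there were 29 CG dinucleotides in Hoxa5, 26 in Hoxa6 and 14 in Hoxb4, and in the other 2 changed genes with an entry, both lower, 15 in Hoxa11 and 9 in Hoxc4. The median was 14.5 over the 24 Hox promoters (some genes have more than 1) and 7 over all 32851 promoters. On both strands, CCAAT was found in 15 of the 24 Hox promoters, against 37.4% of all. The PBX-HOX sequence TGATNNAT was found in 4, against 8.85%, and TATAAA in 4, against 13.6%. Of the 5 changed genes with an entry, the promoters of Hoxa5, Hoxa6 and Hoxc4 held a CCAAT box and neither of the other motifs, and those of Hoxb4 and Hoxa11 held none of the 3.

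Hoxa11 (ENSMUSG00000038210), which patterns the middle segment of the limb, had 2082, 2294 and 2105 counts in control and 1947, 1615 and 1410 in miR-322/-503 libraries. The gap between the groups was small but present in every library, with a log2 fold change of −0.39 (SE 0.09, adjusted p = 0.01355). Of its exon bases 35.0% also lie in the antisense gene Hoxa11os, whose own log2 fold change was −0.04 (adjusted p = 0.8636).

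No other HoxA gene passed the test. Hoxa2, which patterns the second branchial arch, had 126, 134 and 158 counts in control and 100, 110 and 140 in miR-322/-503 libraries. The groups overlapped on the CPM and TPM scales. Hoxa3, needed for thymus and parathyroid, stood at 5.83, 7.66 and 6.47 TPM against 5.64, 5.57 and 4.59, with a log2 fold change of −0.35 (SE 0.14, adjusted p = 0.1103). Hoxa4 stood at 0.914, 1.22 and 1.03 TPM against 0.878, 0.926 and 0.824. The Hoxa3 groups did not overlap and the Hoxa4 groups did. Hoxa3 shares 25.4% of its exon bases with genes on the other strand, and Hoxa4 16%.

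Hoxa7 differed by less than its SE. It stood at 16.4, 18.8 and 16.7 TPM in control and 15.7, 18.7 and 16.6 in miR-322/-503 libraries (log2 fold change 0.06, SE 0.12). Hoxa9, a gene also known from leukaemia, had 1689, 1677 and 1776 counts against 2510, 2091 and 1698, and 28.0, 35.0 and 26.1 TPM against 29.9, 35.5 and 28.0. It was the gene of HoxA and HoxC with the largest upward log2 fold change, 0.28 (SE 0.10, adjusted p = 0.06875), and on log2(TPM + 1) with limma this was 0.07. Hoxa10, a paralog of Hoxc10 and the second most abundant Hox gene, stood at 47.1, 49.6 and 42.9 TPM against 40.5, 45.9 and 40.9. The groups overlapped (log2 fold change −0.13, SE 0.08). Hoxa13, which patterns the digits, stood at 2.33, 1.73 and 2.98 TPM against 1.42, 1.68 and 1.61. The groups did not overlap, with a log2 fold change of −0.56 (SE 0.24, adjusted p = 0.1241).

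In the HoxC cluster (chr15:102921103-103036852), the lower genes were Hoxc4 and Hoxc6 near one end and Hoxc13 at the other. Hoxc4 (ENSMUSG00000075394), a gene of the neck and upper trunk, had 1643, 2027 and 1854 counts in control and 1022, 1024 and 1077 in miR-322/-503 libraries. All 3 miR-322/-503 libraries lay under the lowest control library, also on the CPM scale, with a log2 fold change of −0.81 (SE 0.13, adjusted p = 0.002888). Hoxc6 (ENSMUSG00000001661), a thoracic gene, had 1381, 1642 and 1687 counts against 1184, 912 and 849. The groups did not overlap (log2 fold change −0.69, SE 0.09, adjusted p = 0.001099), and on the TPM scale Hoxc6 was at 27.2 ± 1.74 and 17.4 ± 1.07 (SD, n = 3). Hoxc13 (ENSMUSG00000001655), which is needed for hair and nails, had 650, 971 and 886 counts against 544, 544 and 463. This gave a log2 fold change of −0.68 (SE 0.16, adjusted p = 0.01563). It no longer passed without control replicate 2, miR-322/-503 replicate 1 or miR-322/-503 replicate 3.

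The other 6 HoxC genes did not pass. Hoxc5 stood apart in its counting. It had 679, 691 and 255 counts in control and 691, 426 and 358 in miR-322/-503 libraries, while its TPM values of 5.76, 5.40 and 4.70 against 4.77, 3.72 and 2.91 were closer together. Of its exon bases 5.37% lie in Hoxc10 exons, and its log2 fold change of −0.19 had an SE of 0.38. Hoxc8, which acts in thoracic vertebrae and motor neurons, stood at 3.55, 3.91 and 3.90 TPM against 3.36, 3.79 and 2.97. Hoxc9, its neighbour with a similar role, stood at 11.2, 12.8 and 14.2 TPM against 9.73, 11.3 and 10.3, and was the one of these 6 genes whose groups did not overlap on the CPM scale (log2 fold change −0.26, SE 0.11, adjusted p = 0.1235).

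Hoxc10, the most abundant Hox gene, stood at 65.1, 75.8 and 73.0 TPM in control and 58.7, 73.7 and 66.6 in miR-322/-503 libraries. The log2 fold change was −0.09 (SE 0.10). Hoxc11 stood at 24.4, 26.4 and 27.3 TPM against 20.8, 25.4 and 21.9. The groups of both genes overlapped. Hoxc12, the least abundant gene of the cluster, had 53, 61 and 28 counts against 30, 8 and 38, or 1.27, 1.34 and 0.605 TPM against 0.575, 0.198 and 0.876. Its log2 fold change was −0.92 (SE 0.59).

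By paralog number, 9 of the 24 tested genes belonged to paralogs 4 to 6, and 6 of these were called, 4 lower and 2 higher, where 28.8% of all tested genes were called in either direction. The 2 higher ones, Hoxb4 and Hoxb6, entered the test only through the libraries where they are high, and a difference in direction between clusters was not tested. In paralog group 4 Hoxb4 was higher and Hoxc4 lower. In group 6 Hoxb6 was higher, and Hoxa6 and Hoxc6 were lower. In group 5 Hoxa5 was lower, while Hoxb5 and Hoxc5 did not pass. The summed level of paralogs 4 to 6 was 62.2 ± 2.52 TPM in control and 39.6 ± 1.94 TPM in miR-322/-503 cells (SD, n = 3), which was 19.7% and 14.8% of all Hox transcripts. The sums of paralogs 1 to 3 were 12.2 ± 1.46 and 11.2 ± 0.64 TPM, and those of paralogs 7 to 9 were 63.5 ± 6.11 and 62.0 ± 6.33 TPM. Paralogs 10 to 13 summed to 177.8 ± 9.02 and 155.4 ± 14.01 TPM. Of the tested genes of paralogs 7 to 9, 0 passed in either direction by edgeR, where 2 (Hoxa9 and Hoxc9) had an unadjusted p under 0.05, and DESeq2 called 1, Hoxa9, higher.

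**Figure D4:**
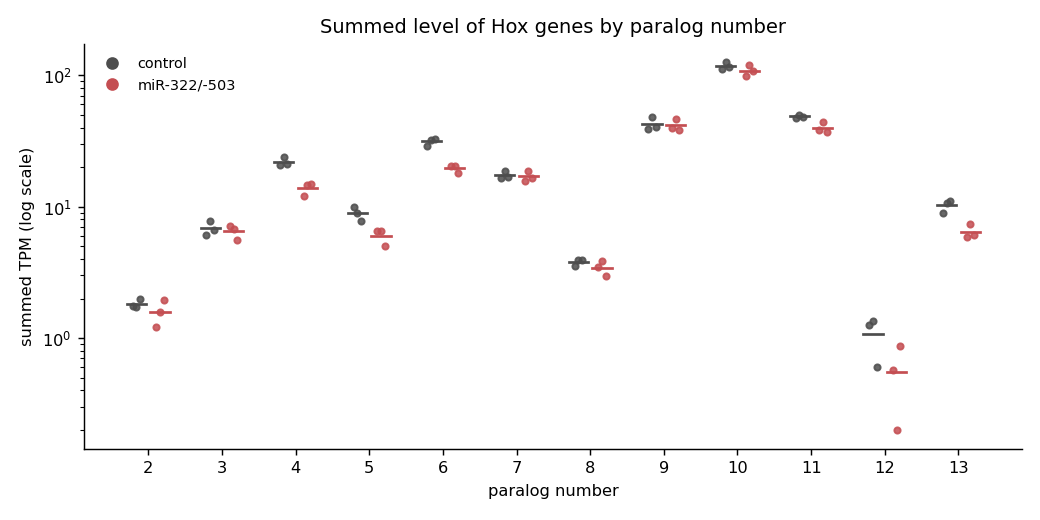
Summed TPM of the Hox genes of each paralog number (x axis, 2 to 13) on a log y axis, with 1 point per library and a line at each group mean. The miR-322/-503 points lie under all control points at numbers 4, 5, 6, 11 and 13, and overlap them at the others.

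The other annotated genes inside the clusters, mostly non-coding, were chosen by position. Of 20 such genes in HoxA 12 were tested, of 9 in HoxB 1, and of 7 in HoxC 2, and 0 of these 15 passed the adjusted threshold by edgeR or DESeq2, where 28.8% of all tested genes passed by edgeR. One of them, Hoxaas3, had an unadjusted p under 0.05. In HoxD 10 such genes had 0 counts in all libraries. Several of the 15 tested genes had few counts, among them Gm27817 (12, 4 and 14 in control against 11, 8 and 13). The 0 calls therefore do not show that these genes were unchanged. Hotair, a long non-coding RNA of HoxC known to bind Polycomb proteins, had 405, 398 and 521 counts in control and 604, 425 and 387 in miR-322/-503 libraries, and the groups overlapped (log2 fold change 0.08, SE 0.14, adjusted p = 0.7322). Hoxaas3, antisense to Hoxa7, had a log2 fold change of −1.10 (SE 0.40, adjusted p = 0.07689).

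Of the genes that border the clusters on the outside, 13 were tested and 7 did not pass. The other 6 were higher and 0 genes were lower by edgeR, beside 13.2% and 15.5% of all genes, and none of the 6 passed 2-fold. DESeq2 called 0 lower, and 1 gene below 0, Skap1, had an unadjusted p under 0.05. The median of the 13 was 0.0997 on the log2 scale, and Hibadh, Snx11, Smug1 and Skap1 lay below 0. Beside HoxA the higher genes were Skap2, an adaptor protein gene (6171, 6274 and 6769 counts against 8942, 7044 and 7032, log2 fold change 0.25), and Snx10, a sorting nexin gene (0.61). Beside HoxC they were Cbx5, which encodes the heterochromatin protein HP1 alpha (0.32), Hnrnpa1, a splicing factor gene (0.22), and Calcoco1 (0.29). Beside HoxD it was Mtx2, a mitochondrial membrane protein gene (0.24). Adjusted p-values from edgeR were 0.007643, 0.006061, 0.005108, 0.01859, 0.03101 and 0.02834 in this order. Of the genes tested beside HoxB, Skap1, Cbx1 and Snx11 did not pass.

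Among the TALE cofactors 2 of 9 were higher and 1 was lower, beside 13.2% and 15.5% of all tested genes. Meis2 had 1439, 1587 and 1702 counts in control and 2868, 2350 and 2521 in miR-322/-503 libraries (log2 fold change 0.71, SE 0.08, adjusted p = 0.000512). Pknox2 had 522, 601 and 641 against 1216, 1059 and 1067 (0.93, SE 0.10, adjusted p = 0.000397). Pbx4, the least abundant of them, had 129, 127 and 109 against 63, 36 and 55 (−1.26, SE 0.26, adjusted p = 0.009526). The groups of these 3 genes did not overlap.

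Among 31 Polycomb group genes 5 were higher and 3 were lower, beside 13.2% and 15.5% of all tested genes, so nothing is read from these counts. The median log2 fold change was −0.04, and the 3 largest changes among the called genes were downward. Epop, an accessory gene of Polycomb repressive complex 2, had 120, 121 and 87 counts in control and 16, 30 and 28 in miR-322/-503 libraries (−2.11, SE 0.39, adjusted p = 0.005929). Cbx7, which encodes a reader of methylated histone H3, had 1332, 1791 and 1386 against 929, 536 and 742 (−1.05, SE 0.16, adjusted p = 0.002763). Phf19, another accessory gene of the same complex as Epop, had 1301, 1404 and 1328 against 856, 657 and 589 (−0.95, SE 0.09, adjusted p = 0.000281). The core genes Ezh2, Eed and Suz12 did not pass, with log2 fold changes of 0.20, −0.10 and 0.03 and SEs of 0.09, 0.10 and 0.27.

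Of 16 Trithorax group and H3K27 demethylase genes, 2 were higher and 1 was lower, against the same shares of all genes, and nothing is read from these counts. Kmt2a, a histone H3K4 methyltransferase that keeps Hox genes active, had 8264, 13083 and 13904 counts against 9294, 7657 and 7308. The first control library stood below the other 2, and the log2 fold change was −0.53 (SE 0.15, adjusted p = 0.0359). Dot1l was at 0.39 and Ash2l at 0.21 on this scale (adjusted p = 0.01545 and 0.03953).

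Retinoic acid and other signals set Hox expression in the embryo. Of 25 genes of this list 16 were tested, 4 were higher and 6 lower (13.2% and 15.5% of all genes), with a median of −0.22, and 8 had 0 counts in every library, among them Cdx2, Cdx4, Shh and Aldh1a2. Rarb, a retinoic acid receptor gene that is itself induced by retinoic acid, had 16, 38 and 36 counts in control and 249, 123 and 147 in miR-322/-503 libraries (log2 fold change 2.50, SE 0.36, adjusted p = 0.001816). Aldh1a1, which makes retinoic acid from retinaldehyde, had 469, 384 and 435 against 121, 77 and 65 (−2.32, SE 0.20, adjusted p = 0.000154). Crabp1, which binds retinoic acid in the cytoplasm, had 16, 14 and 28 counts against 0 in each miR-322/-503 library, which was at least 1.59-fold lower on the CPM scale when each of these was set to 12 counts. These lists were described by their counts and not tested as sets, and no relation between them and the Hox genes was tested.

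**Figure D5:**
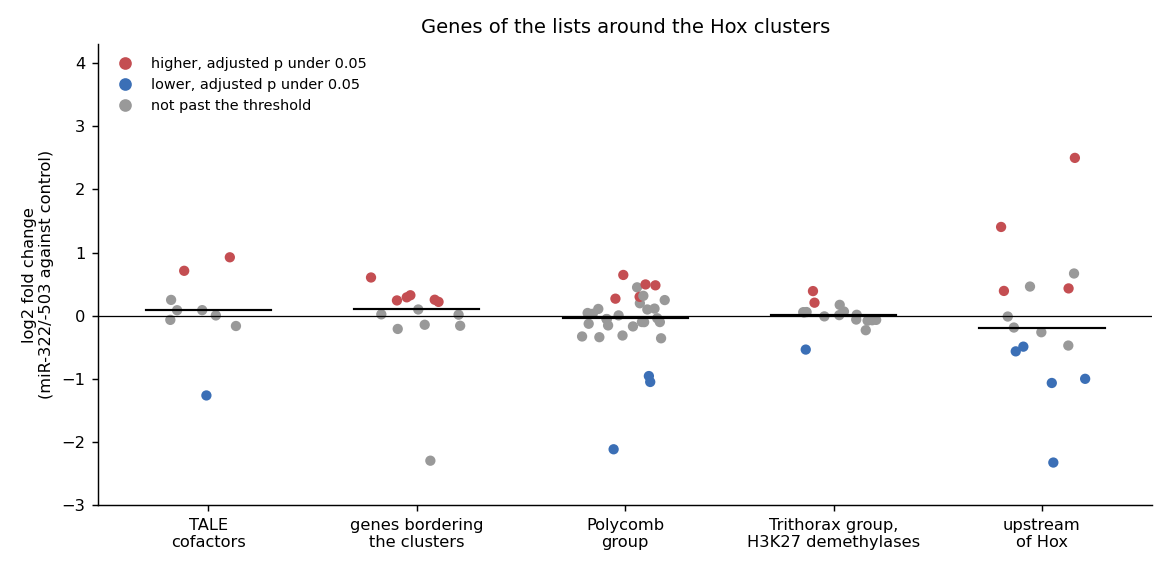
log2 fold change of the miR-322/-503 group against control (y axis) for each tested gene of 5 lists around the Hox clusters, with a line at each list's median. Coloured points passed an adjusted p of 0.05 in edgeR. Among the bordering genes the 6 coloured points all lie above 0. Crabp1, with 0 counts in 1 group, is not drawn.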

How the data were processed

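RNA-seq of 6 libraries (control and miR-322/-503, 3 each) was used. Per the labels, the authors trimmed reads with Trim Galore, aligned them with HISAT2 to GRCm38 and used StringTie. Versions, annotation and strand setting are not given in the sources used here. The authors deposited estimated counts per gene as whole numbers, and per library the coverage signal, FPKM and TPM of each gene. FPKM and coverage were not used as levels. From 1 read pair covering about 4 counts, read pairs were recovered only for intervals and limits. Of 55421 genes, 28405 had a count.

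Genes were filtered with filterByExpr, scaled by TMM and tested with the edgeR quasi-likelihood test (edgeR 4.0.16, R 4.3.3, limma 3.58.1, DESeq2 1.42.0), with Benjamini-Hochberg adjustment. Scripts were tested on simulated data. Intervals are exact (conditional binomial) at 95%. Alternatives were DESeq2, other size factors, other filters, limma on log2(TPM + 1) and log2(TPM + 0.1), a replicate block, counts per read pair, and leaving out each library. 3′ UTR and exon overlaps came from GENCODE models on GRCm38.

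Every member was counted, and values of some genes are not reported here. Members that passed or reached a mean of 1 TPM were given in every library, and of each related list the called genes with the largest change, at most 3 (all for TALE, bordering and non-coding genes). Ezh2, Eed, Suz12, Hotair and Hoxaas3 were named after their values were seen. Members and lists were chosen with earlier results of these data known.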

Additional observations from a re-analysis of the deposited data

How the results depend on the processing

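The 6 lower calls included Hoxa6, Hoxa11, Hoxc4 and Hoxc6 in the main fit and in all 15 alternatives. Hoxb3 and Hoxb4 were called higher in the 14 alternatives that tested them. In the main fit they entered the test only through the libraries where they are high. The alternatives reuse the same libraries, so these calls are no independent sign of stability. With edgeR and no filter on low counts, where every gene with a count was tested, the adjusted p was 0.009941 for Hoxb3 and 0.02164 for Hoxb4. With at least 10 counts in every library 0 Hox genes were higher and 0 were higher past 2-fold, because that filter left the HoxB genes untested. With limma on log2(TPM + 1) 1 gene, Hoxb4, was higher past 2-fold, where the pseudocount shrinks low levels. Leaving out 1 library at a time gave 2 to 4 higher and 4 to 6 lower genes, 2 to 4 higher past 2-fold and 1 to 1 lower past 2-fold. Without miR-322/-503 replicate 2, Hoxb2 was called on 0 counts against 12 and 12. Hoxa9 was also called higher by DESeq2 (adjusted p = 0.0474) and by edgeR without miR-322/-503 replicate 3 (log2 fold change 0.365, adjusted p = 0.029). Directions near 0 reversed for Hoxa7 (−0.0246 and −0.026 with limma at a pseudocount of 1 and 0.1, and −0.0081 to 0.1584 when 1 library was left out, below 0 without control replicate 3 and without miR-322/-503 replicate 2 at −0.0038), Hoxc5 (−0.5394 to 0.0543 when 1 library was left out, above 0 without control replicate 1 and at 0.0001 without control replicate 2) and Hoxc10 (−0.1551 to 0.0143, above 0 without miR-322/-503 replicate 1). The cause was not tested. Deviations of same-numbered libraries correlated by 0.131, 0.0687 and 0.0451, so the numbers were not taken to pair the libraries. A replicate block in the model gave 3 Hox genes higher and 5 lower (3 and 1 past 2-fold), as Hoxa5 then did not pass (adjusted p = 0.06329). HoxB levels rest on few read pairs, which limits their ratios to the intervals given.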
